A study of Mus musculus with 6 samples.

Results

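Cubilin and 5 other genes of cobalamin (vitamin B12) and folate uptake were followed in the small intestine of mice with and without Cftr. They were Cubn, Slc46a1, Slc19a1, Tcn2, Folr1 and Folr2, and every probe set of the array whose single gene symbol was one of these names was taken. This gave 9 probe sets for 6 genes, of 12422 probe sets and 8251 named genes in all. The genes were selected on their null and control intensities in these 6 mice, with that contrast known, so their levels in that contrast are given as a description, with no p-value. They entered the fit over all probe sets only so that their number past its threshold can be set beside the background.

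RNA of the whole small intestine was hybridised to 1-colour Affymetrix arrays, 1 mouse per array, and the values are scaled intensities in arbitrary units. The 3 control mice were CFTR(+/+) and the 3 null mice CFTR(-/-), all 40 days of age and congenic on the black6 background. All 6 mice had been given the Peptamen diet since day 10 of life, which keeps the gut from blocking, so the controls do not stand for mice on ordinary chow. In either genotype 2 mice were male and 1 was female, with the female as replicate 3 among controls and replicate 2 among nulls. The labels do not say which part of Cftr was altered. The brightest Cftr probe set read 801.6 to 1018 in controls and 295.6 to 368.5 in nulls (log2 difference -1.47, limma adjusted p = 0.00421). Of 13 enterocyte markers 9 were on the array, and all 9 were bright enough to be tested in this tissue, such as villin, Vil1, from 6960 to 11810. Precision is limited by having 3 mice a group. The p-values set each difference against the spread between these mice, moderated by that of other probe sets of similar intensity.

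Dietary cobalamin, bound to intrinsic factor from the stomach, is taken up in the distal small intestine by cubilin, a very large peripheral membrane protein that is anchored and carried to the surface by amnionless (Amn) and works together with megalin (Lrp2). Inside the enterocyte cobalamin is passed to transcobalamin 2, the product of Tcn2, which carries it in plasma to other tissues. Dietary folate enters mainly in the proximal small intestine through the proton-coupled folate transporter, Slc46a1. The reduced folate carrier, Slc19a1, moves folates at neutral pH in most cells, and the folate receptors Folr1 and Folr2 bind folate at the cell surface, Folr1 in certain epithelia and Folr2 in macrophages.

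The region around the annotated start of Cubn and of Slc46a1 is shown because these members differed most between the genotypes, with nulls below controls in both. Each sequence runs 5′ to 3′ on the strand of the gene, from 250 bases before the start to 30 bases after it, in RefSeq's mouse build GRCm38.p6. The window lies at chr2:13491847-13492126 on the minus strand for Cubn and at chr11:78465451-78465730 on the plus strand for Slc46a1. Capitals mark the first 30 transcribed bases.
Cubn: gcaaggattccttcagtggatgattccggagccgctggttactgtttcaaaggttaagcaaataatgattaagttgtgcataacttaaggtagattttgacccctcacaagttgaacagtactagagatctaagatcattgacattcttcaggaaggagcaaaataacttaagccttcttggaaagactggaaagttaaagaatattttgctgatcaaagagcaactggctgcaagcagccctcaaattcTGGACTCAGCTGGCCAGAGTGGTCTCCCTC
Slc46a1: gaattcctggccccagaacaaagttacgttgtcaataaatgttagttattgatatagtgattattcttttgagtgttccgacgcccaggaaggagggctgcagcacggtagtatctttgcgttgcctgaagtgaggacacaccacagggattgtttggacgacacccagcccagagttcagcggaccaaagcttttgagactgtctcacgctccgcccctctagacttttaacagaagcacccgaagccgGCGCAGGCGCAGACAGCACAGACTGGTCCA
A set of 5 short motifs was searched on both strands of these windows. They were a nuclear receptor half-site (AGGTCA), present in 15.4% of 32817 RefSeq windows of the same 280 bases, and an HNF4 core (CAAAGTC), present in 4.22%. The others were an HNF1 half-site (GTTAAT), present in 6.85%, a CDX core (TTTATG), present in 11.5%, and a GATA core (AGATAA), present in 10.7%. The Cubn and Slc46a1 windows held 0 matches to these letters, and 1 of the windows of Folr2 held 1 HNF4 core. A longer NRF1 motif had been searched as well. It had a match at the start of the Slc46a1 transcript and none in the Cubn window. The NRF1 motif was left out of this set after that search because of its length, so the set does not show Slc46a1 to be without motif matches. Its share of all RefSeq windows is not given here, so nothing is read from that match. RefSeq windows were found for 4 of the 6 members. A match or its absence describes letters in this window only.

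Cubn, the receptor of the cobalamin and intrinsic factor complex, was far lower in null mice. Its brighter probe set, 95000_g_at, gave 3667, 3183 and 4705 for controls, listed here and later by replicate number from 1 to 3, while the nulls gave 108.8, 361.8 and 118.2. The groups lay far apart, and the highest null, the female, was still well below the lowest control. Controls averaged 3852 ± 777 (SD, n = 3), nulls 196.3 ± 143 (SD, n = 3). On the log2(value + 12) scale the difference was -4.40 (SE 0.41), or 21.1-fold, and it ranked 1 among falls over the 7601 probe sets tested. Null replicate 1 was under 109.7, the level that a probe set had to exceed on at least 3 arrays to be tested, so the size of the difference for single null mice is less certain than the separation of the groups. In whole tissue, fewer cells that express a gene and less of its RNA per cell cannot be told apart.

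The other Cubn probe set, 94999_at, designed on the same sequence record, did not show this pattern. It read 124.3, 109.8 and 133.3 in controls and 116.0, 122.2 and 131.4 in nulls. These values interleave, and all 6 lie close to the level required for testing. Its log2 difference was 0.01 (SE 0.21). The 2 Cubn probe sets therefore disagree, and the lower level of Cubn in nulls rests on the brighter one, whose name carries a letter before the ending _at that can mark probes shared with other sequences. The cause of the disagreement was not tested.

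Slc46a1, the intestinal folate importer, was the other member with a wide separation. Its probe set, 94339_at, read 3391, 3633 and 3108 in controls and 866.1, 1151 and 694.0 in nulls. All nulls were below all controls, and the female null was again the highest of the nulls. Controls averaged 3377 ± 263 (SD, n = 3), nulls 903.5 ± 231 (SD, n = 3), a log2 difference of -1.92 (SE 0.18), or 3.77-fold. It ranked 34 among falls over the 7601 probe sets.

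**Figure D1:**
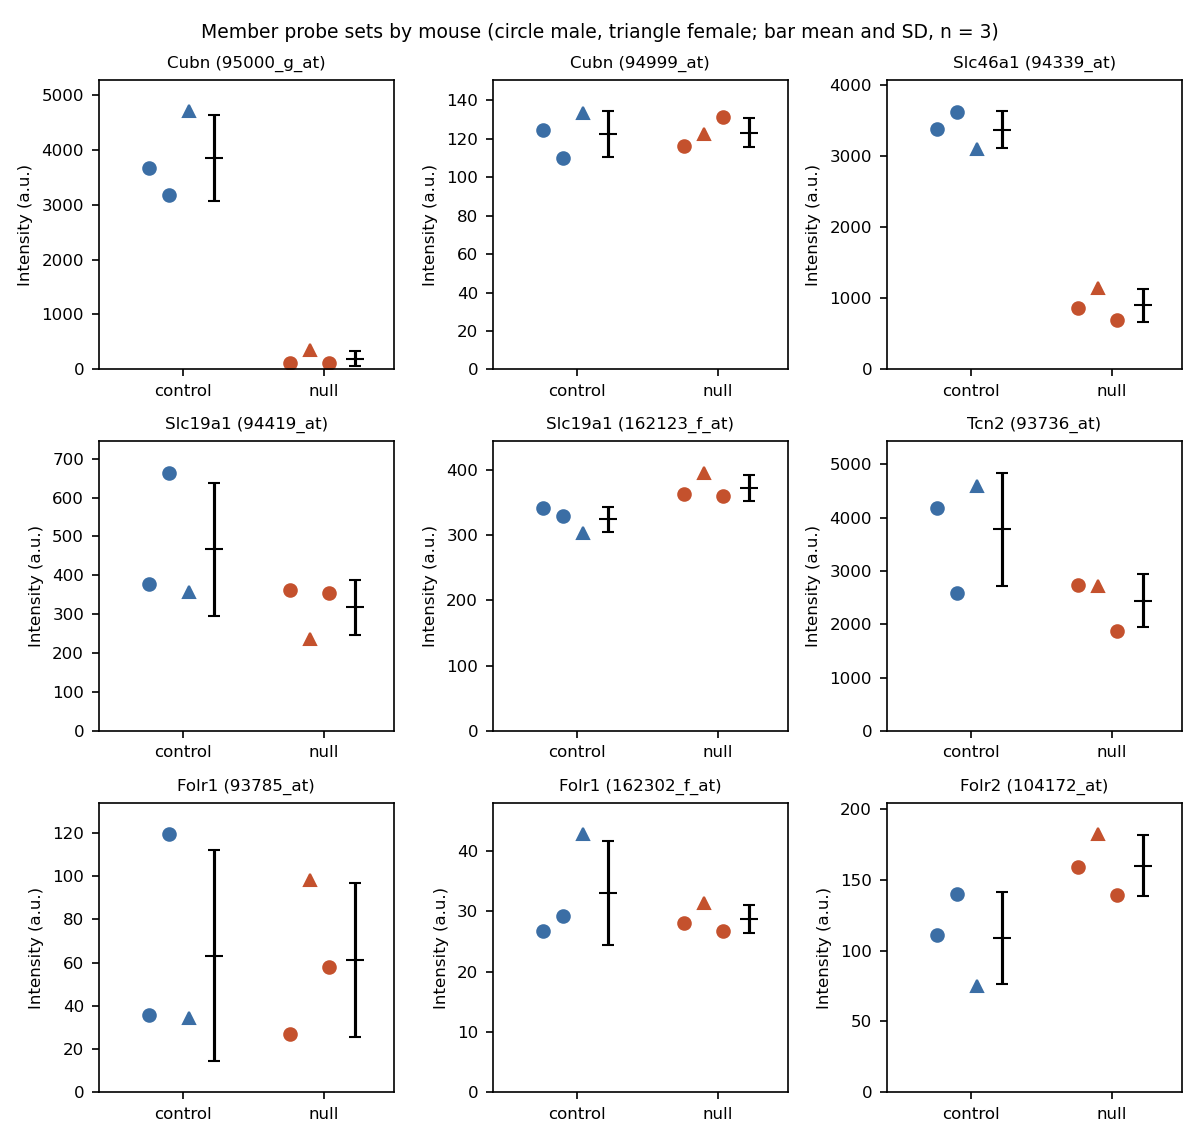
Intensity of each of the 9 member probe sets (vertical axes from 0, arbitrary units) in the 3 control and 3 null mice, circles for males and triangles for females, with the mean and SD of each group beside them. Cubn 95000_g_at and Slc46a1 show nulls far below controls, whereas the groups of Tcn2, Slc19a1 94419_at, Folr1, Folr2 and Cubn 94999_at overlap.

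Of the 7 member probe sets bright enough to enter the fit, which stand for 5 genes, these 2 were past an adjusted p of 0.05 in the fit over all probe sets, both lower in nulls. Of all probe sets tested, 1.87% were past it and lower in nulls, and 1.13% were past it and higher. Groups did not overlap in 3 of the 7, against 23.8% of all probe sets tested (10.8% with nulls lower and 13.1% with nulls higher). Because the members were chosen with this contrast known, nothing is read from either count.

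**Figure D2:**
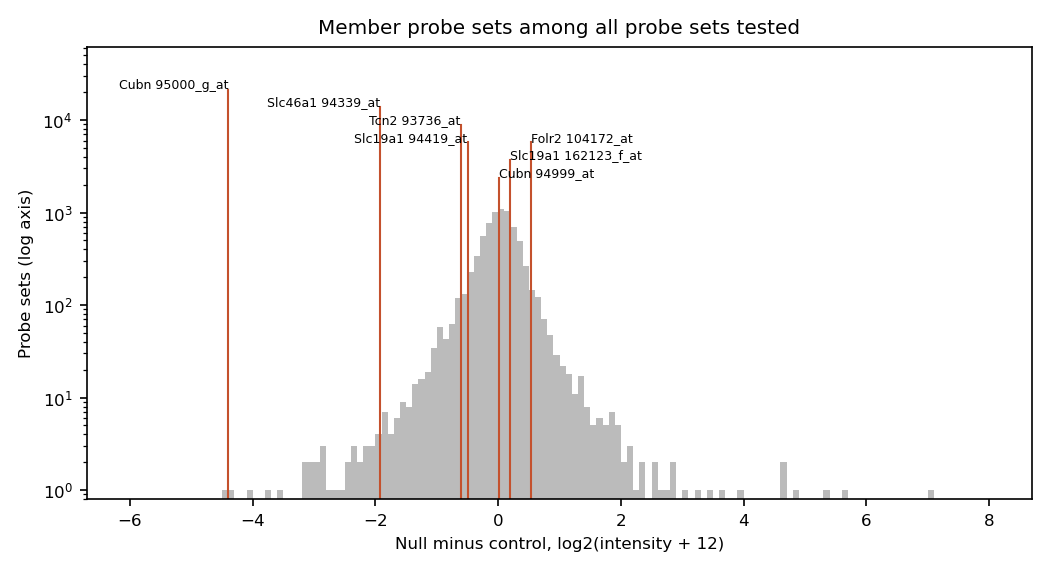
Histogram of the null minus control difference on the log2(value + 12) scale over the 7601 probe sets tested (vertical axis logarithmic), with the 7 member probe sets in the fit as vertical lines. Cubn 95000_g_at lies at the far left at -4.40 and Slc46a1 at -1.92, and the other 5 lie between -0.61 and 0.54.

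Tcn2, which encodes the plasma carrier that takes cobalamin onward from the enterocyte, overlapped between the groups. Probe set 93736_at read 4176, 2587 and 4600 in controls and 2734, 2725 and 1873 in nulls. Control replicate 2 fell among the nulls, and the other 2 controls were above all nulls. Controls averaged 3788 ± 1061 (SD, n = 3), nulls 2444 ± 495 (SD, n = 3), a log2 difference of -0.61 (SE 0.24). Without control replicate 2 it was -0.86, and without null replicate 3 it was -0.43.

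Slc19a1, the reduced folate carrier, gave 2 probe sets that differ in sign. Probe set 94419_at read 377.6, 664.4 and 357.4 in controls and 361.8, 236.6 and 354.9 in nulls. Control replicate 2 stood above the other 5 mice, which overlap, and the log2 difference of -0.50 (SE 0.27) became -0.23 without that mouse. Probe set 162123_f_at read 340.6, 329.2 and 303.3 in controls and 362.4, 395.7 and 359.8 in nulls. Here every null was slightly above every control, by 0.19 on the log2 scale (SE 0.12) and by 0.11 in males alone. No single direction can be given for Slc19a1.

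The folate receptors were dim. Folr1 was not tested, since its probe sets were above 109.7 on 1 array and on 0 arrays. Probe set 93785_at read 35.7, 119.5 and 34.6 in controls and 27.0, 98.3 and 58.2 in nulls, and 162302_f_at ranged from 26.8 to 42.8 over the 6 mice. The groups overlapped in both, at levels where this array gives little information. Folr2, probe set 104172_at, read 111.2, 140.1 and 75.0 in controls and 158.6, 182.1 and 139.0 in nulls. The lowest null lay just under the highest control, so the groups overlapped narrowly. The log2 difference was 0.54 (SE 0.27). The control mean was near the level required for testing, and with that level in its place the fold was 1.41 on this scale. This fold is a point estimate and not a lower limit of the change. The log2 difference was 0.32 without control replicate 3 and 0.23 in males alone.

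The same null mouse was the highest null for both members that were far lower in nulls. Null replicate 2, the female, had the highest value of the 3 nulls for Cubn (361.8) and for Slc46a1 (1151). Lct, the lactase of the proximal brush border, was also highest there among nulls, with 714.5, 4816 and 569.1 in the nulls against 10866 to 11317 in controls (adjusted p = 0.0606). Over all 142 probe sets called lower in nulls, null replicate 2 was the highest null in 94 (66.2%), against 35.2% of all probe sets tested. In males alone the log2 difference was -4.77 for Cubn and -2.16 for Slc46a1. With 1 female in each group, sex and the single mouse cannot be told apart.

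Genes of the distal and proximal small intestine were set beside the members, since cobalamin and folate are absorbed in different segments. Control replicate 2 stood far below the other controls in the distal genes Fabp6 and Fgf15, but not in every distal gene. Fabp6, the ileal bile acid binding protein, read 7441, 100.3 and 6099 in controls and 880.2, 2159 and 1116 in nulls. Fgf15, a hormone of the ileum, read 152.9, 6.0 and 153.8 in controls and 148.5, 43.8 and 82.7 in nulls. Cubn read 3183 in control replicate 2, the lowest of the 3 controls. Without that mouse the log2 difference was -4.53 for Cubn and -1.86 for Slc46a1. Slc51a, a bile acid exporter, read 4446, 3288 and 6235 in controls and 2462, 3167 and 2373 in nulls (adjusted p = 0.143). In controls Mep1a read 698.8, 392.2 and 815.8 and Mep1b 7277, 6020 and 8060, with control replicate 2 lowest in both. Nr1h4 read 686.9, 773 and 538.2 in controls, with control replicate 2 highest. The log2 difference of Mep1b, the brightest distal gene, was -0.06.

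**Figure D3:**
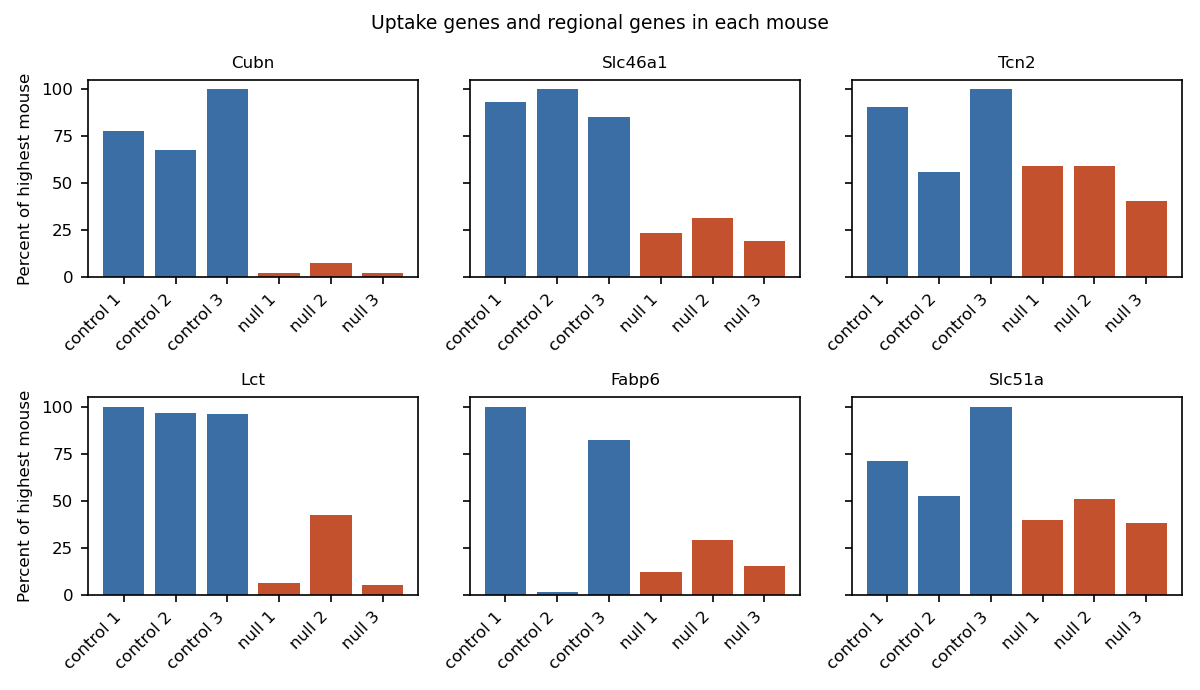
Level of 6 genes in each mouse as a percent of the mouse with the highest value (brightest probe set, bars from 0; blue control, red null). Control replicate 2 is at 1.35% for Fabp6, 67.7% for Cubn and 100% for Slc46a1. The nulls lie between 11.8% and 29% for Fabp6, between 2.31% and 7.69% for Cubn and between 19.1% and 31.7% for Slc46a1.

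Of 6 distal genes tested 0 passed (median log2 change -0.23), and of 10 proximal genes 0 passed (median -0.45), against 1.98% of all 5717 genes called lower, 1.14% called higher and a median of 0.025. The summed level of the distal list was 10583 to 21972 in controls and 10894 to 13704 in nulls, and that of the proximal list 65828 to 81058 and 34015 to 56394. Slc10a2, the ileal bile acid transporter, was at or under 109.7 on all arrays. The apolipoprotein Apoa4 read 23897 ± 2808 (SD, n = 3) in controls and 15673 ± 3437 in nulls (adjusted p = 0.122). Their part in the lower levels of Cubn and Slc46a1 was not tested.

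Among the proteins that work with cubilin, 0 of 21 genes tested passed in either direction, with a median log2 change of 0.01. Amn was not analysed here. Megalin, Lrp2, was dim in every mouse, from 74.9 to 104.0. Clcn5, a chloride-proton exchanger of endosomes, was the partner with the lowest log2 change: it read 474.9, 468.8 and 578.2 in controls and 346.0, 359.0 and 191.2 in nulls. The groups did not overlap, but the change did not pass (log2 difference -0.79, adjusted p = 0.146). Intrinsic factor, Cblif, read 147.8, 99.2 and 162.0 in controls and 85.5, 53.4 and 96.5 in nulls, too dim to be tested. Clathrin heavy chain, Cltc, which coats the endocytic pits, averaged 5096 ± 451 (SD, n = 3) among controls and 5130 ± 171 among nulls. The lysosomal protease Ctsb (5225 and 5129) and the lysosomal membrane protein Lamp1 (7070 and 5600, adjusted p = 0.236) did not pass either.

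Inside the cell, 0 of 5 tested genes of cobalamin handling passed (median log2 change -0.06). Cd320, the receptor for transcobalamin 2, averaged 199.5 ± 8.86 (SD, n = 3) among controls and 235.0 ± 37.6 among nulls. Mmut, the mitochondrial methylmalonyl-CoA mutase that uses cobalamin, was at 352.5 ± 46.5 and 372.6 ± 150, with null replicate 2 alone at 544.4. The other cobalamin enzyme, methionine synthase, Mtr, was between 12.2 and 17.2 in all mice. Pccb and Mcee, which act just before Mmut, were at 839.9 and 379.3 in controls and 820.9 and 363.4 in nulls. Abcc1, an exporter of folates and other anions, read 8.6, 10.6 and 9.4 in controls and 62.2, 44.5 and 66.3 in nulls. Its groups did not overlap, but every value was under 109.7 and it was not tested.

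Enzymes of folate metabolism did not follow the folate importer. Of 8 genes tested 0 passed, 7 had a log2 change above 0 and 1 below 0, and the median was 0.20. Ggh, the hydrolase that trims folate polyglutamates in lysosomes, read 200.9, 200.5 and 178.4 in controls and 397.3, 196.2 and 345.2 in nulls; null replicate 2 lay among the controls (log2 difference 0.61, adjusted p = 0.273). Mthfd2, of the mitochondrial folate pathway, averaged 945.3 ± 137 (SD, n = 3) among controls and 1416 ± 699 among nulls, where null replicate 3 alone read 2215. Shmt1, the cytosolic serine hydroxymethyltransferase, was at 351.3 ± 62.5 and 397.2 ± 75.5, and Dld at 2883 and 2985. Folh1, which removes glutamates from dietary folate, was at 4.2 or less in every mouse. In the methionine cycle, 0 of 5 genes passed (median -0.15): Ahcy was at 3202 ± 504 in controls and 3200 ± 154 in nulls, and its relative Ahcyl1 at 5987 and 4447 (adjusted p = 0.152).

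On the list of other vitamin and folate carriers, 2 of 9 genes tested passed, both lower in nulls, where 1.98% of all genes were called lower. Not all 9 are carriers, since the list also held the retinol binding protein Rbp2 and the enzyme Pdxk (log2 difference -0.4). The log2 change was below 0 in 9 of 9, against 46.1% of all genes, with a median of -0.64 against 0.025. This was not particular to the list. Mature enterocyte markers were also below 0 in 9 of 9 (median -0.49), and proximal genes in 8 of 10 (median -0.45). The lists were chosen with earlier results of these data known. The other 7 genes of the carrier list did not pass, and the groups overlapped for the exporters Abcc3, Abcc5 and Abcg2 (limma adjusted p = 0.538 to 0.608). Slc23a2, a sodium-coupled vitamin C transporter, read 2148, 2769 and 2158 in controls and 1207, 1390 and 1409 in nulls (log2 difference -0.81, limma adjusted p = 0.0255). Scarb1, a lipoprotein receptor that also takes up carotenoids and vitamin E, read 978.9, 1056 and 1058 in controls and 619.9, 627.2 and 436.8 in nulls (log2 difference -0.88, limma adjusted p = 0.0312). Over all alternatives the adjusted p ran from 0.018 to 0.107 for Slc23a2 and from 0.0244 to 0.114 for Scarb1. In both genes every null was below every control. Each call was lost when single mice were left out: for Slc23a2 without any mouse but control replicate 2 (adjusted p = 0.0512 to 0.103), and for Scarb1 without any mouse but null replicate 2 (adjusted p = 0.055 to 0.0997). Slc5a6, the carrier of biotin and pantothenate, read 312.5, 470.4 and 304.4 in controls and 183.4, 223.7 and 104.0 in nulls, without passing (adjusted p = 0.107). The cellular retinol binding protein Rbp2 was at 7455 ± 386 (SD, n = 3) and 4821 ± 758 (adjusted p = 0.0556). The folate exporter Abcg2 was at 2174 ± 231 and 1914 ± 197. Over the 5 lists of the pathway together, 48 of 102 genes were tested, 0 passed higher and 2 lower, with a median log2 change of -0.03.

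**Figure D4:**
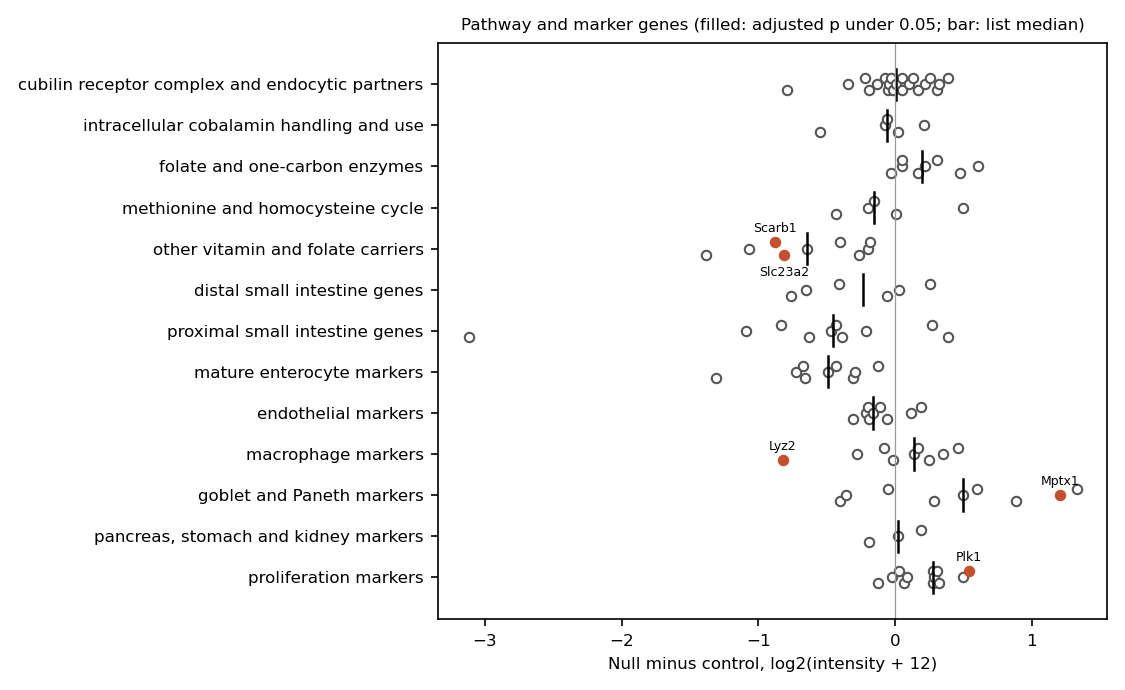
Null minus control difference on the log2(value + 12) scale for the tested genes of each pathway, regional and marker list (1 circle per gene, brightest probe set; filled where the adjusted p is under 0.05; bars are list medians). The list of other vitamin and folate carriers lies wholly left of 0 with a median of -0.64, and so do the mature enterocyte markers with -0.49. The proximal genes have a median of -0.45, and the medians of the 4 other pathway lists lie between -0.15 and 0.20.

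Genes whose log2 values followed Cubn 95000_g_at most closely over the 6 mice were Hccs, the holocytochrome c synthase (Pearson r = 0.997), the sulfotransferase Sult1d1 (0.994), 1110032A03Rik (0.993), chromogranin A, Chga (0.992), and the class I histocompatibility gene H2-D4 (0.992). These 6 points fall into the 2 genotypes, so any gene with a clear difference and null replicate 2 highest among nulls scores high. Sult1d1 read 1488, 1545 and 1430 in controls and 357.7, 551.8 and 344.2 in nulls. Slc46a1 had r = 0.984 with Cubn over the same 6 mice.

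Marker genes of the cell types in the tissue were set beside the members. All 9 enterocyte markers had a log2 change below 0 (median -0.49, 0 passed), and their summed level was 78087 to 94151 in controls and 48247 to 71191 in nulls. The marker Fabp2 read 19456, 16297 and 18502 in controls and 7607, 12234 and 4131 in nulls (adjusted p = 0.0938), with null replicate 2 again the highest null, whereas Krt20 was at 15585 ± 1412 (SD, n = 3) and 14360 ± 1176. Endothelial markers, which bear on Tcn2, summed to 2443 to 2940 in controls and 2285 to 2823 in nulls, and 0 of 9 passed (median -0.16), such as Eng at 974.8 and 1116. Macrophage markers, which bear on Folr2, summed to 11951 to 14971 in controls and 11519 to 11959 in nulls. Without Lyz2, a sum added after seeing the data, the order turned, with 6900 to 7529 in controls and 7622 to 8494 in nulls. The median log2 change was 0.14, with 5 of 9 genes above 0. Only 1 of the 9 passed, Lyz2, lower in nulls at 3687 ± 216 against 6598 ± 1342 (adjusted p = 0.0437); it did not pass without any mouse but control replicate 2 (adjusted p = 0.0961 to 0.157, and 0.00954 to 0.217 over all alternatives). Of 9 goblet and Paneth markers the Paneth pentraxin Mptx1 passed, higher in nulls (1273 and 2920, adjusted p = 0.0396), but not without any mouse but control replicate 1 (adjusted p = 0.0588 to 0.116, and 0.0325 to 0.126 over all alternatives). Of 12 proliferation markers Plk1 passed, higher in nulls (481.9 and 707.9, adjusted p = 0.0455), but not without any 1 of the 6 mice (adjusted p = 0.0769 to 0.145, and 0.0322 to 0.238 over all alternatives). Of 3 markers of pancreas, stomach or kidney tested 0 passed, with the pancreatic Ctrb1 at 1199 in controls and 1081 in nulls. The part of these cell types in the values of the members was not tested.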

How the data were processed

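Total RNA of the whole small intestine of 6 mice was measured on 1-colour arrays, per the labels. The deposited values are linear probe set intensity values that had been scaled before deposit (the 2%-trimmed mean is 500.3 on each array); the software and background steps are not given in the sources used here. The 66 control probe sets were left out, and 12422 remained. Of these, 10833 had 1 gene symbol in the platform annotation, 396 had several and 1193 had none; 10817 were found in the RefSeq gene table of build GRCm38.p6, which changed 0 symbols.

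Values were turned into log2(value + 12); 12 is the 10th percentile of all positive values. Folds are on that scale and understate changes of dim genes. Probe sets above 109.7 (the 40th percentile) on at least 3 of 6 arrays were tested, 7601 in all, with limma 3.58.1 in R 4.3.3 (lmFit, eBayes with a variance trend, two-sided, Benjamini-Hochberg adjustment over all 7601, threshold 0.05), and the functions were tested on simulated data. For gene counts, each gene's brightest tested probe set stood for it. Where the lower group's mean lay at or under 109.7 on the log2 scale, the fold was taken against that level, as a point estimate without its sampling error.

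Named genes were Cftr, the members, a fixed set of pathway genes and the 5 genes most like Cubn. To these came up to 4 called genes of each list with the largest change, or the 2 brightest where 0 were called. Of these, Fabp1, Emcn and Cel are not described above and did not pass (limma adjusted p = 0.326, 0.735 and 0.972). Vil1, Clcn5, Cltc, Fgf15, Mep1a, Nr1h4, Slc5a6, Rbp2, Pdxk, Abcc3, Abcc5 and Abcg2 were chosen after their values were seen. Members and lists were chosen with earlier results of these data known. Replicate numbers follow accession order and pair no samples. The labels name separate mice and no batch. Alternatives were quantile normalization, equal medians, other pseudocounts and filters, sex as a covariate, males only, other variance models, other ways to represent a gene, and leaving out each mouse.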

Additional observations from a re-analysis of the deposited data

How the results depend on the processing

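The log2 differences of the members kept their sign under all 16 alternatives run for Cubn 95000_g_at (-4.93 to -4.11), Slc46a1 (-2.16 to -1.74), Tcn2 (-0.86 to -0.43) and both Slc19a1 probe sets (-0.66 to -0.23 and 0.11 to 0.23), and under the 15 for Folr2 (0.32 to 0.72 without single mice, 0.23 in males alone); groups that do not overlap cannot change sign when a mouse is left out. Cubn 94999_at, at -0.06 to 0.07, has no direction. The count of probe sets higher in nulls was 50 in males alone, 49 with eBayes without a trend and 17 to 68 without single mice, and that of lower ones 85, 92 and 35 to 117. Of the 5 pathway lists, 0 genes passed lower in males alone and without a trend, and 0 to 1 without single mice; 1 passed higher with no filter, and 0 to 1 did without single mice. No paired analysis was possible because the labels state no pairing of the mice. Signal over background limits Folr1, Folr2, Lrp2 and Cubn 94999_at, which lie near or under the level required for testing.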
